A study of Mus musculus with 2 samples.

Results

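The 9 genes described here encode replication-independent histone variants: H3f3a and H3f3b (H3.3), H2afz and H2afv (H2A.Z), H2afx (H2A.X), H2afy (macroH2A1), H2afj (H2A.J), H1f0 (H1.0) and H1fx (H1.10, formerly H1x). They were chosen by gene symbol and make up 9 of the 55536 genes in the deposited gene tables, all 9 of which were found. RNA of the nucleoplasmic fraction of mouse bone marrow-derived macrophages was sequenced after depletion of ribosomal RNA, in 2 libraries of 1 group. Cells of the inbred strain C57BL/6J were given 100 ng/ml Lipid A, the part of lipopolysaccharide that Toll-like receptor 4 binds, for 12 h, were kept without it for 12 h after a wash and were given 100 ng/ml again for 30 min. Sex and age were not collected, the source field calls the fraction nuclear, and the labels give both replicates the same donor identifier and separate biosamples. No label says that these were separate mice or cultures, so their spread may be partly technical. The starting RNA was 1 µg for replicate 1 and 500 ng for replicate 2 (size range 250 to 400). With 1 group, no condition is compared with another and no p-value is given.

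Most histone mRNA of a dividing cell comes from clustered replication-dependent genes, which are transcribed in S phase, lack introns and end in a stem-loop instead of a poly(A) tail. The variants described here are made throughout the cell cycle and in cells that have left it, mostly from polyadenylated transcripts, and are placed into chromatin outside replication by dedicated chaperones and remodellers. H3.3 is deposited in active genes by the HIRA complex and in heterochromatin by DAXX and ATRX, and H2A.Z flanks promoters, where SRCAP and EP400 complexes exchange it for H2A. In cells that do not divide, such variants are a source of new histone. Whether the macrophages sequenced here were dividing was not tested.

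Replicate 1 held 23845991 gene counts and replicate 2 held 20675294. A count of 0 allows up to 3 counts, which is 0.126 CPM in replicate 1 and 0.145 CPM in replicate 2. These limits cover counting error only. All 10 macrophage markers on the list used here had a TPM (transcript abundance per library total and length) of 1 or more in both libraries, and their TPM summed to 2150 and 3590 in replicates 1 and 2. The summed TPM of T and NK, B, neutrophil, dendritic, mast and fibroblast cell markers lay between 0.02 and 2.26, with Cd3e, Ly6g and Tpsb2 at 0 in both. In the read-based table, introduced below, 1 of the 5 T and NK markers had 1 TPM or more in both libraries. The B, neutrophil, dendritic, mast and fibroblast lists had 0 such genes there. The endothelial list summed to 24.1 and 18.5 TPM through Vwf and Kdr while Tek was at 0, and the erythroid list to 2.01 and 3.28 TPM, mostly Alas2. In the cell-cycle list, 5 of 6 genes reached 1 TPM in each library, and Pcna, the sliding clamp of DNA polymerase, was highest at 18.81 and 24.18 TPM. The part of any of these cells in the levels below was not tested.

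Both H3.3 genes encode the same protein from different DNA. The coding sequences of the transcripts H3f3b-201 and H3f3a-205 are both 408 bases (136 codons before the stop), differ at 95 bases, 81 of them in the last base of a codon, and differ at 0 residues. The first 90 coding bases are shown because reads are assigned to either gene through such differences, which are in capitals (20 in this stretch).
H3f3b-201: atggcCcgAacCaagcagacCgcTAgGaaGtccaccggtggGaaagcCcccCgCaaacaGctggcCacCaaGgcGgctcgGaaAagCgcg
H3f3a-205: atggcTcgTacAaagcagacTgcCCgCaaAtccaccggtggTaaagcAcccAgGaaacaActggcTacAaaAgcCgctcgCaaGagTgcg
The longest run that the whole coding sequences share in register is 23 bases. For H2A.Z, H2afz-201 and H2afv-202 both have 384 coding bases (128 codons), with 80 differing bases, 69 of them in the last base of a codon, and 3 differing residues.

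The gene H2afy makes 2 proteins through mutually exclusive exons on chromosome 13, minus strand (mm10, GENCODE M21). The exon of H2afy-201, which encodes macroH2A1.2 (372 residues), has 100 bases at chr13:56089758-56089857. That of H2afy-202, which encodes macroH2A1.1 (369 residues), has 91 bases at chr13:56088252-56088342. Both lie in the coding part, within the macro domain, and only macroH2A1.1 is known to bind ADP-ribose. They are printed in lower case throughout because the share of each exon is measured below.
H2afy-201 exon: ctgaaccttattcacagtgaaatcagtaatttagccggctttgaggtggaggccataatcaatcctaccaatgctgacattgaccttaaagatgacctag
H2afy-202 exon: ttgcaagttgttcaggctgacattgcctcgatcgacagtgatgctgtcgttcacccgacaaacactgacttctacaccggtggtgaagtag

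Promoter windows from 250 bases before to 50 after the gene start were taken from RefSeq (build GRCm38.p6), whose start need not be that of the GENCODE transcripts. Of the 9 genes, 8 matched, all but H2afx. Those of the H3.3 and H2A.Z pairs are shown because each pair encodes the same or nearly the same protein at different levels. Capitals mark matches, on either strand, to CCAAT (the motif of NF-Y), TATAAA (the motif of the TATA-binding protein), GGGCGG (a GC box), TGACGC (which shares only TGACG with the cyclic AMP response element) and ATGCAAAT (an octamer). GGGCGG matches can overlap one another, and no matches of different motifs overlapped in these windows.
H3f3b promoter, chr11:116024455-116024754, minus strand: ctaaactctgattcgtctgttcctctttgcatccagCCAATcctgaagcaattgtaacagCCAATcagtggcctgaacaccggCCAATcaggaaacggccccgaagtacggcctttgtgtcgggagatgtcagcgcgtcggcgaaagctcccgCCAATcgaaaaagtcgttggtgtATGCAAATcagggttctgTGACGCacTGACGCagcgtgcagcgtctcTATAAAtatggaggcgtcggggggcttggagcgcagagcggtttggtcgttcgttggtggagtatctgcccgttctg
H3f3a promoter, chr1:180813556-180813855, minus strand: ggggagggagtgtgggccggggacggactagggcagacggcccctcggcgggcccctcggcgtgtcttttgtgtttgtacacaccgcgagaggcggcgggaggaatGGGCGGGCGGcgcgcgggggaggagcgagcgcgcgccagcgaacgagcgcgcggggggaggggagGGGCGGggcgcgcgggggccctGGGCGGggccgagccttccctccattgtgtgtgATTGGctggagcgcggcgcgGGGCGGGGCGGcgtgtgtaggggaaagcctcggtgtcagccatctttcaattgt
H2afz promoter, chr3:137864237-137864536, plus strand: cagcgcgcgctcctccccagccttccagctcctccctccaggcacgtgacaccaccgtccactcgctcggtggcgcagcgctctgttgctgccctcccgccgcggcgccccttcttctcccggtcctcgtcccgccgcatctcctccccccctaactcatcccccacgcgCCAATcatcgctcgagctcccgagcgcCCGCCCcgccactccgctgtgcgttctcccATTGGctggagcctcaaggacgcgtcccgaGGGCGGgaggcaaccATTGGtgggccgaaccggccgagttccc
H2afv promoter, chr11:6444394-6444693, minus strand: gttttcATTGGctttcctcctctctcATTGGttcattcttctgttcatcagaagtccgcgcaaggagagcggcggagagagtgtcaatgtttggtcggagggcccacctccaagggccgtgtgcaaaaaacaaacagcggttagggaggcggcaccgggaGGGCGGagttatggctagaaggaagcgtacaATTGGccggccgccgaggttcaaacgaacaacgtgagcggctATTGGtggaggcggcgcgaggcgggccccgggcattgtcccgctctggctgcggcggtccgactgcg
The H3f3b window held 4 CCAAT, 1 TATAAA, 2 TGACGC and 1 ATGCAAAT match and 0 of GGGCGG, with a GC content of 55.0%. The H3f3a window held 1 CCAAT and 6 GGGCGG matches and 0 of the other motifs, with a GC content of 74.0%. Of all 32817 windows of this length, 37.4% held CCAAT at least once, 3.37% at least 3 times and 1.06% at least 4 times. GGGCGG was held by 35.6% at least once, 19.5% at least 2 times and 2.71% at least 5 times. TGACGC was held by 7.39% at least once and 0.616% at least 2 times. TATAAA was in 13.6% and ATGCAAAT in 1.74%, and the median GC content of all windows was 52.7%. The H2afz window held 3 CCAAT and 2 GGGCGG matches, the H2afv window 4 and 1, and that of H2afj 3 and 2. The windows of H2afy, H1f0 and H1fx held 2, 1 and 1 GGGCGG matches and no CCAAT. A match is a description of letters and not a binding site.

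Most of the variant genes were found in nucleoplasmic RNA, from 1.18 TPM for H2afx to 265.1 TPM for H3f3b. At 1 TPM or more in both libraries were 8 of the 9, all but H1fx, against 41.9% of 22028 protein-coding genes. At 10 TPM or more in both were 4 of the 9 (H3f3b, H2afy, H3f3a and H2afz), against 15.6%. In the read-based table, introduced below, 7 of the 9 reached 1 TPM in both libraries (40.5% of protein-coding genes) and 3 reached 10 TPM (10.1%), with H2afx below 1 TPM and H2afz below 10 TPM there. The median of the 9 was 8.16 TPM in replicate 1 and 8.29 TPM in replicate 2, where that of all nuclear protein-coding genes was 0.27 and 0.33 TPM. Together they reached 345 and 392 TPM, of which H3f3b gave 70.8% and 72.9%.

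H3f3b (chr11:116021912-116027962, minus strand) was highest by far. It had 244.22 TPM in replicate 1 and 286.05 TPM in replicate 2, a mean of 265.1 ± 29.6 TPM (SD, n = 2), from 12875 and 13079 counts. Both values lay above those of 99.6% and 99.7% of nuclear protein-coding genes. H3f3a (chr1:180800832-180813943, minus strand) had 28.31 TPM in replicate 1 and 33.39 TPM in replicate 2, on average 30.85 ± 3.59, from 960 and 875 counts. H3f3b thus carried 89.6% and 89.5% of the TPM of the H3.3 pair in the alignment-based table. In the read-based table it carried 76.1% in replicate 1 and 81.0% in replicate 2. That table was estimated by the authors from the read files, whereas the alignment-based tables, the source of all values not said to be otherwise, came from transcriptome alignments.

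The gap between the tables came with opposite shifts of both genes. For H3f3b the read-based level was 101 TPM in replicate 1 and 184 TPM in replicate 2, which is 0.415 and 0.644 of the alignment-based level. Over protein-coding genes at 1 TPM or more, the median of this ratio was 0.550 and 0.780. H3f3a was the only variant gene with more TPM in the read-based table, at 31.8 and 43.3 TPM, or 1.12 and 1.30 times the other table. Only 6.61% of 9214 protein-coding genes were higher there in both libraries. Of the 31-base words of H3f3a-201, 62.8% occur in transcripts of other genes, all 55 of them annotated as pseudogenes. The counts of these 55 summed to 46.7 and 19.2 in the alignment-based table and 267 and 209 in the read-based table. Such sums do not bound the error of H3f3a, because shared reads may also have been assigned to H3f3a itself. For H3f3a, alignments gave 960 and 875 counts in replicates 1 and 2, and read files 1685 and 1580. The read-based library totals were also larger, so the level of H3f3a is uncertain by an amount not set here. H3f3a also lies across the opposite-strand long noncoding gene Gm17275 (1599 and 1277 counts) and H3f3aos (79 and 37). Since the strand setting is unknown here, it is not known whether reads of these genes were told apart where they overlap. Of the named processed copies, H3f3a-ps2 had 1.52 and 0.83 TPM and H3f3a-ps1 was listed at 0.

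H2afz (chr3:137864487-137866922, plus strand), the main H2A.Z gene, had 13.19 TPM in replicate 1 and 14.98 TPM in replicate 2, with a mean of 14.09 ± 1.27 (SD, n = 2). H2afv (chr11:6427229-6444443, minus strand) had 2.86 and 4.94 TPM, or 3.90 ± 1.47, from only 65 and 76 counts. H2afz was the higher of the pair in both libraries and held 82.2% and 75.2% of their summed TPM. Of the 31-base words of H2afz-201, 34.5% occur in 4 other genes, all pseudogenes, which held 4 and 0 counts. H2afv-201 shared none. The read-based levels were lower, at 4.18 and 7.19 TPM for H2afz and 1.35 and 3.23 TPM for H2afv.

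H2afy (chr13:56073619-56136361, minus strand) encodes a histone with a large macro domain that is linked to repressed chromatin and to the response to DNA damage. It was second of the 9, with 40.98 TPM in replicate 1 and 35.13 TPM in replicate 2 (38.05 ± 4.14). Its antisense neighbour Gm47071 had 154 and 60.9 counts, against 1839 and 1275 for H2afy. H2afj (chr6:136808244-136810074, plus strand), a variant known from human cells to accumulate in senescence, had 8.16 and 8.29 TPM (8.225 ± 0.0919). H2afx (chr9:44334694-44336077, plus strand), whose protein is phosphorylated beside DNA breaks, had 1.12 and 1.24 TPM (1.18 ± 0.0849) from 50 and 40 counts. In the read-based table H2afy had 24.1 and 31.6 TPM, H2afj 3.39 and 5.02 TPM and H2afx 0.402 and 0.842 TPM. H2afj and H2afx share a few of their 31-base words, 7.16% and 8.86%, with replication-dependent histone genes, among them Hist3h2a.

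The linker histone genes were far apart. H1f0 (chr15:79028450-79030504, plus strand), the variant that accumulates in cells that stop dividing, had 6.04 TPM in replicate 1 and 8.25 TPM in replicate 2, 7.145 ± 1.56 on average, and 2.32 and 5.29 TPM in the read-based table. H1fx (chr6:87980421-87981637, minus strand) had 0.03 and 0.07 TPM from 1 and 2 counts. The opposite-strand gene Gm5577, which overlaps it over 755 bases, had 24.39 and 20.99 counts. H1f0 held 99.5% and 99.2% of their joint TPM. With so few counts, and the strand setting unknown here, no level can be set for H1fx.

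**Figure D1:**
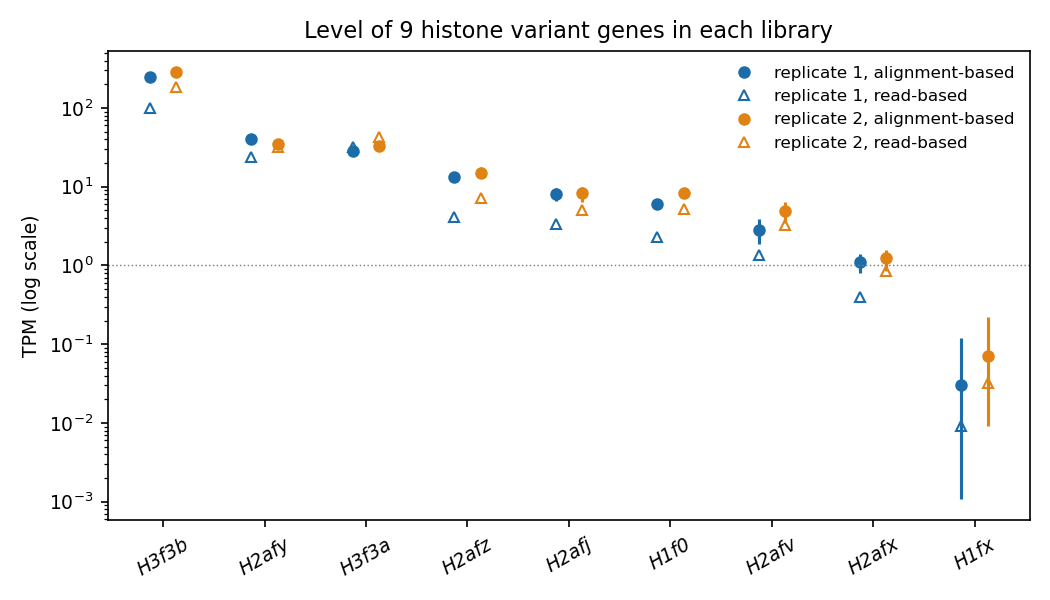
TPM (log axis) of the 9 variant genes in replicate 1 (blue) and replicate 2 (orange), with filled circles for the alignment-based and open triangles for the read-based table; vertical lines are the authors' credibility bounds and the dotted line is 1 TPM. H3f3b sits at 244 and 286 TPM, and H3f3a alone has its triangles above its circles in both libraries.

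In order of level, H3f3b came first, followed by H2afy, H3f3a, H2afz, H2afj, H1f0, H2afv, H2afx and H1fx, and the order was the same in each library. The lower H3f3b value was 5.96 times the higher value of H2afy. The step between H2afy and H3f3a was only 1.05, and the read-based table put H3f3a above H2afy in both libraries. H2afj and H1f0 were the 1 pair of neighbours whose values overlapped. All other neighbours had values apart, although n = 2 gives little hold on their spread.

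Replicates were next compared on counts scaled by TMM factors, as log2 ratios of replicate 1 over replicate 2, over genes averaging 100 counts or more. A difference in either direction may be of RNA per cell or of the cells present, which bulk RNA cannot tell apart. Starting RNA and the mitochondrial share of counts, given below, also differed between the libraries, and their part was not tested. Of the 9 genes, 6 passed this filter and 0 of these lay beyond 2-fold, where 3.49% of 9673 genes did. Their median ratio was -0.02, as was that of all these genes. H2afj had the largest ratio, 0.52, with a counting interval of 0.25 to 0.79 (exact Clopper-Pearson, 95%), from 306 and 186 counts. H2afy followed at 0.33 (0.23 to 0.44). H3f3b was lower in replicate 1, at -0.22 (-0.26 to -0.18). The intervals of H3f3a at -0.06 (-0.20 to 0.07), H2afz at 0.02 (-0.19 to 0.24) and H1f0 at -0.17 (-0.37 to 0.02) held 0. Counting error alone is covered by these intervals. Below the filter, H2afv stood at -0.42 (-0.92 to 0.07) and H2afx at 0.12 (-0.50 to 0.76).

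**Figure D2:**
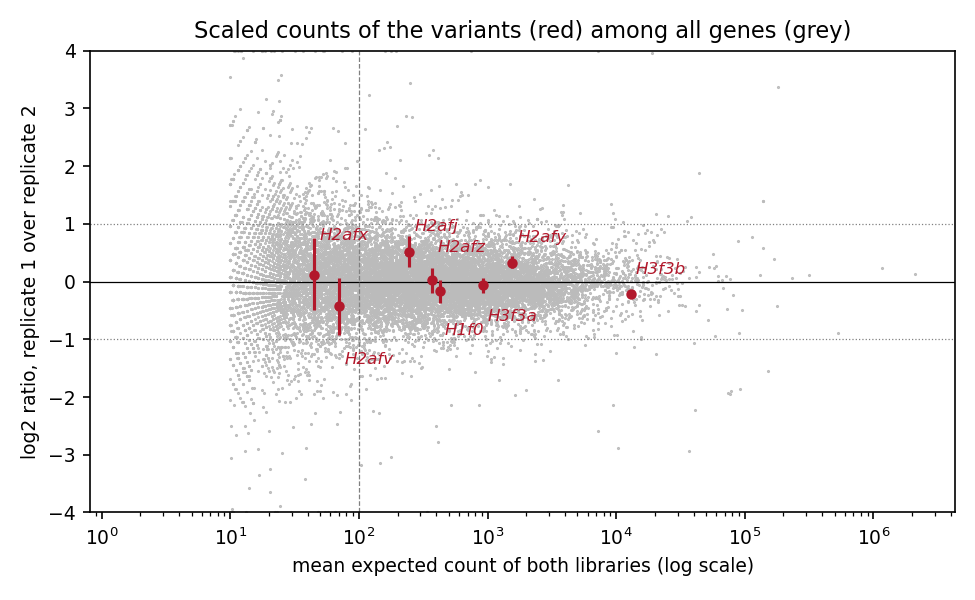
Log2 ratio of scaled counts, replicate 1 over replicate 2, against the mean expected count (log axis) for genes averaging 10 counts or more (grey; values past the axis are drawn at its edge). The variants with such counts are in red with 95% counting intervals, dotted lines mark 2-fold and the dashed line a mean count of 100. The red points at 100 or more lie between -0.22 and 0.52.

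TPM, which is a share of all RNA and takes effective length into account, gave other differences between the libraries than scaled counts did. The median log2 TPM ratio of replicate 1 over replicate 2 was -0.26 over nuclear protein-coding genes at 1 TPM or more. H2afj, whose scaled counts differed most, had a log2 TPM ratio of -0.02. Its deposited effective length was 965 bases in replicate 1 and 808 bases in replicate 2. H3f3b had 393.4 FPKM in replicate 1 and 383.29 FPKM in replicate 2, the other direction from its TPM, with effective lengths of 1357 and 1646 bases. The authors' credibility bounds, which describe estimation error within a library, were apart with replicate 2 higher for 2 of the 8 genes at 1 TPM or more, H3f3b and H1f0, where 37.3% of such protein-coding genes were. They were apart with replicate 1 higher for 1 of 8, H2afy, against 6.4%. The deposited TPM of H3f3b lay outside its own bounds in both libraries (232 to 242 TPM in replicate 1 and 270 to 281 TPM in replicate 2).

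Several variant genes had a sizeable part of their TPM in transcripts that GENCODE annotates as retained introns or processed transcripts. H3f3b-201, the main coding transcript, held 58.4% of the gene's TPM in replicate 1 and 86.0% in replicate 2. H3f3b-202, which has a coding sequence of the same 408 bases in length, held 5.34% and 2.26%. H3f3b-203 and H3f3b-204, both annotated as processed transcripts, together took 36.2% and 11.7%. In TPM, H3f3b-203 stood at 65.0 and 25.2, so it was higher in replicate 1, while the whole gene was higher in replicate 2. In the read-based table H3f3b-201 was also lower in replicate 1, at 43.7% and 76.7%, and H3f3b-202 held 15.6% and 11.2%.

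H3f3a was spread over more transcripts, and the tables did not give the same picture. In the alignment-based table its retained-intron transcript H3f3a-202 held 31.9% of its TPM in replicate 1 and 17.8% in replicate 2. H3f3a-201 held 20.2% and 61.1%, while H3f3a-207 held 31.2% and 5.84%. H3f3a-201 codes for 135 residues, since it lacks 3 of the coding bases of H3f3a-205, and H3f3a-207 for 136. The read-based table instead led with H3f3a-206 (35.4%) in replicate 1 and H3f3a-204 (30.8%) in replicate 2, both short annotated coding transcripts of 419 and 481 bases. These had at most 0.24 TPM in the alignment-based table. The split among H3f3a transcripts is therefore uncertain.

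By TPM, H2afy had the highest share of noncoding transcripts among the 9. Transcripts other than protein_coding held 63.0% of its TPM in replicate 1 and 58.3% in replicate 2. TPM is per length, and by expected counts the coding transcripts held the greater part. H2afy-201 and H2afy-202 had 378 and 648 of 1839 counts in replicate 1, and 376 and 345 of 1275 in replicate 2. H2afy-203 (retained intron) and H2afy-204 (processed transcript) had 9.72 and 9.57 TPM in replicate 1, and 6.03 and 5.76 TPM in replicate 2. Among 4 variant genes at 10 TPM or more with both kinds of transcript (H3f3a, H3f3b, H2afz and H2afy), H2afy was the 1 above 50% in both libraries, against 20.4% of 3017 protein-coding genes of that kind.

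Of the coding pair shown above, H2afy-202 (macroH2A1.1) held 64.6% in replicate 1 and 49.4% in replicate 2, and H2afy-201 (macroH2A1.2) the rest. H2afy-202 had 9.81 and 7.24 TPM, and H2afy-201 had 5.37 and 7.41 TPM. The read-based table gave H2afy-202 71.0% and 53.2%. Both coding transcripts thus had TPM in both libraries, and macroH2A1.1 was ahead in replicate 1 in both tables, but not in replicate 2 of the alignment-based table. The 100-base exon is also annotated in the retained-intron transcript H2afy-206, which had 4.17 and 5.69 TPM and is outside these shares.

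H2afz was mostly its main mRNA, H2afz-201, at 75.4% and 88.1%, with 12.3% and 11.9% in noncoding transcripts. H2afv and H2afj have 2 transcripts each, all coding. The shorter H2afv-201, with a coding sequence of 270 bases (90 codons), led by TPM with 73.3% and 77.3%. By counts it was the lower, with 23.5 and 31.9 against 41.5 and 44.1 for H2afv-202. In H2afj, H2afj-202 held 50.7% and 64.1% of TPM, from 55.6 and 52.9 counts against 250 and 133 for H2afj-201. In replicate 1 the bounds of H2afj-202 (2.53 to 5.74 TPM) held those of H2afj-201 (3.37 to 4.46 TPM).

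Across these genes, the coding share of TPM was lower in replicate 1 for 4 of the 4 with both kinds of transcript, and for 69.9% of all such genes. For H2afz the shares were close, 87.7% and 88.1%. In the read-based table they stood the other way, 82.0% and 81.5%, so the count there was 3 of 4, against 75.8%. The median coding share of the 4 was 65.9% in replicate 1 and 85.1% in replicate 2, where that of the 3017 genes was 66.1% and 72.1%. The same transcript led in both tables of both libraries for 2 of the 4, H3f3b and H2afz, against 58.3% of protein-coding genes at 10 TPM or more with several transcripts. The replicates also differed in starting RNA, 1 µg and 500 ng, and in mitochondrial mRNA, which took 2.81% of counts in replicate 1 (95% exact binomial interval 2.81 to 2.82) and 6.85% in replicate 2 (6.83 to 6.86). The part of either in the coding shares, TPM differences and ratios of scaled counts was not tested.

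**Figure D3:**
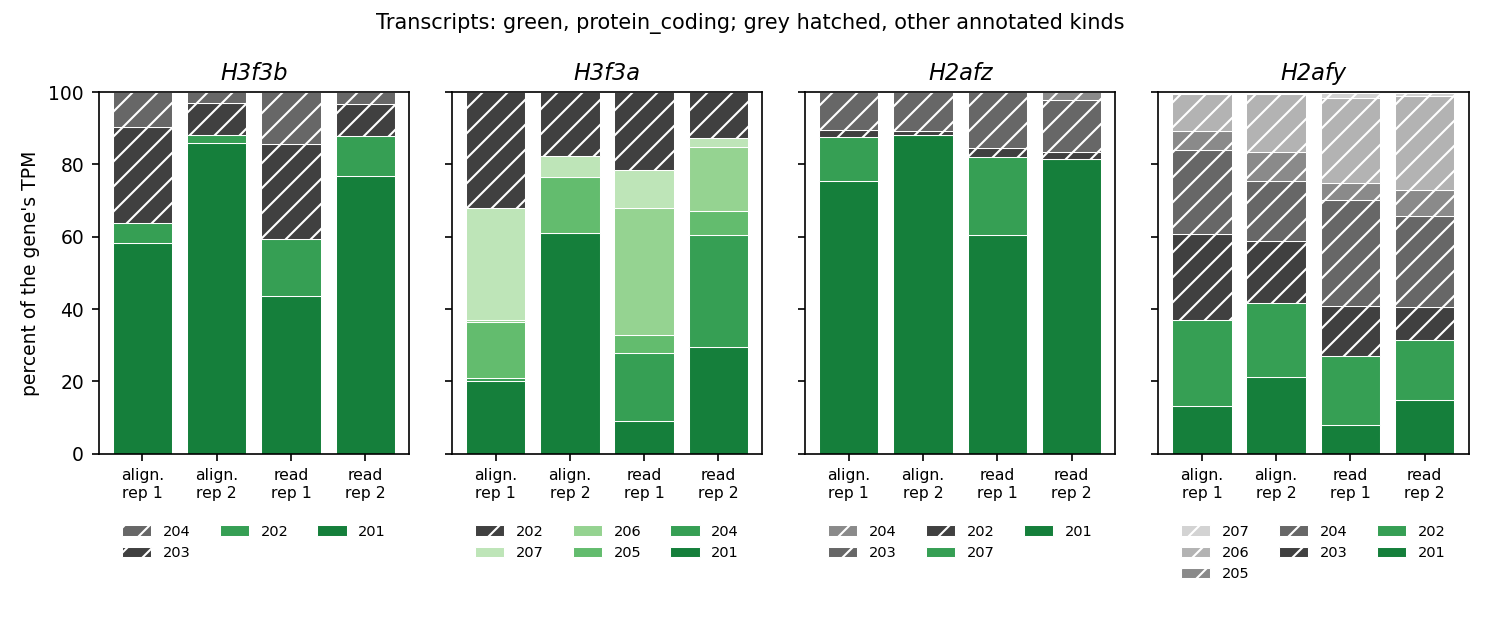
Percent of each gene's TPM by annotated transcript (the number after the hyphen of its GENCODE name), for H3f3b, H3f3a, H2afz and H2afy, in both libraries and both tables; transcripts never reaching 1% are left out. Green parts are protein_coding and grey hatched parts other kinds, which make up 36.2% and 11.7% of H3f3b and 63.0% and 58.3% of H2afy in the alignment-based table.

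Set against the replication-dependent genes of the same class, the variants held nearly all H3 RNA, but only a part of H2A and H1 RNA. H3f3a and H3f3b summed to 273 and 319 TPM in replicates 1 and 2, the 12 replication-dependent H3 genes to 8.03 and 8.78 TPM. The H3.3 share was 97.1% and 97.3%. The 5 H2A variant genes summed to 66.3 and 64.6 TPM, the 18 replication-dependent H2A genes to 52.1 and 38.9 TPM, so that the variant share was 56.0% and 62.4%. H1f0 and H1fx summed to 6.07 and 8.32 TPM, the 6 replication-dependent H1 genes to 8.37 and 8.13 TPM, which gives shares of 42.0% and 50.6%.

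The H2A share turned on few genes. H2afy gave 40.98 and 35.13 TPM of the variants' 66.3 and 64.6 TPM in replicates 1 and 2. Transcripts other than protein_coding held 63.0% and 58.3% of the TPM of H2afy. The class shares cover all transcripts and are not shares of coding mRNA. Hist2h2aa2 had 20.94 TPM in replicate 1 and 5.05 TPM in replicate 2, and overlaps another annotated gene. Its near-identical copy Hist2h2aa1 had 2.98 and 7.47 TPM. Without Hist2h2aa2, a setting chosen after its values were seen, the variants held 68.1% and 65.6% of H2A RNA. Hist3h2a, a replication-dependent H2A gene outside the large clusters, had 13.43 and 11.88 TPM from 999 and 636 counts, close to H2afz. Of the 67 replication-dependent genes, 23 had 1 TPM or more in both libraries, 32 were below it in both and 4 were at 0 in both, with medians of 0.92 and 0.85 TPM.

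By class, the highest replication-dependent genes after these were Hist1h1c for H1 (4.72 and 5.88 TPM), Hist1h2bc for H2B (6.13 and 11.26 TPM), Hist2h3b for H3 (2.11 and 1.52 TPM) and Hist1h4m for H4 (12.93 and 8.62 TPM). Next in their classes were Hist1h1e and Hist1h1a at a mean of 1.12 and 1.08 TPM, Hist1h2bg and Hist1h2bj at 3.48 and 3.19, Hist1h3a and Hist2h3c1 at 1.34 and 1.28, and Hist1h4k and Hist1h4i at 6.84 and 6.53. Hist2h3c1 had 0 and 2.57 TPM, so its mean rests on replicate 2. At the low end were Hist1h1t, Hist1h2ao and Hist1h2ba at 0, Hist1h3f at 0.03 in both, and Hist4h4 at 0.27 and 0.80 TPM. These genes belong to families of near-identical copies, among which the split of reads is uncertain.

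**Figure D4:**
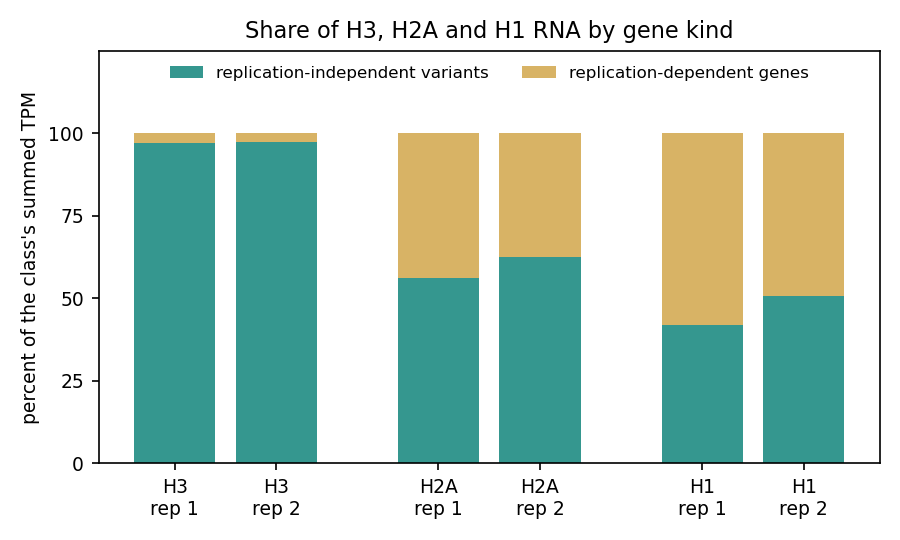
Percent of the summed TPM of H3, H2A and H1 genes in replication-independent variants (teal) and replication-dependent genes (sand), in replicate 1 and replicate 2. Variants hold 97.1% and 97.3% of H3, 56.0% and 62.4% of H2A and 42.0% and 50.6% of H1.

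Most genes for the factors that place these variants had 1 TPM or more, as did 41.9% of all protein-coding genes. All 8 H3.3 deposition genes reached 1 TPM in each library of both tables, with medians of 16.9 and 19.8 TPM. Daxx, the H3.3 chaperone, was highest at 101.34 TPM in replicate 1 and 72.56 TPM in replicate 2 (87.0 ± 20.4). Atrx, its remodelling partner, had 65.35 and 76.23 TPM (70.8 ± 7.69) and Dek, another H3.3 chaperone, 21.63 and 24.54 TPM (23.1 ± 2.06). Asf1a, which hands H3.3 to HIRA, was lowest by mean at 6.46 ± 0.00707. Hira itself, at 5.92 and 7.71 TPM, was below Asf1a in replicate 1. Hira falls outside the rule for named genes and was named after its values were seen. Daxx and Atrx each lay above H3f3a in both libraries, and all 8 below H3f3b.

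For H2A.Z, 11 of 12 exchange genes reached 1 TPM in each library (9 in the read-based table, against 40.5% of genes), with medians of 5.59 and 7.22 TPM. The ATPases Srcap (29.6 ± 2.64) and Ep400 (22.9 ± 0.297) led, with Znhit1, a subunit of the SRCAP complex, at 15.5 ± 2.17. Actr6, an actin-related subunit, was lowest with 0.94 and 1.40 TPM. Anp32e, the chaperone that removes H2A.Z, had 2.41 TPM in replicate 1 and 8.67 TPM in replicate 2, and a log2 ratio of scaled counts of -0.97. It falls outside the rule for named genes and was named after its values were seen.

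Chaperones of replication and general use had 9 of 10 genes at 1 TPM or more (8 in the read-based table), with medians of 9.75 and 13.5 TPM. Npm1 (nucleophosmin) had 19.02 and 46.41 TPM, Set, an acidic histone chaperone, 16.08 and 34.92 TPM and Supt16, the large FACT subunit, 11.28 and 20.67 TPM, each lower in replicate 1. Asf1b, the ASF1 copy of dividing cells, was lowest at 1.03 and 0.44 TPM. All 8 genes of H2A.X signalling had 1 TPM or more (7 in the read-based table), although H2afx itself stood at 1.18 TPM. Baz1b, a kinase for H2A.X, had 30.9 ± 1.49, Eya3, a phosphatase for it, 11.8 ± 2.77, Trp53bp1, which binds chromatin at breaks, 9.65 ± 1.06 and Ppm1d, a phosphatase and the lowest, 1.47 ± 0.184 TPM.

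Of 8 other variant genes, only Cenpa, the centromeric H3, had 1 TPM or more in both libraries, at 1.66 and 2.31 TPM. H2afy2, which encodes macroH2A2, had 0.39 and 0.43 TPM, and H3f3c, annotated as a processed pseudogene, 0.24 and 0.60 TPM. H2afb1, H2afb2, H2afb3 and H1fnt, variants known from the testis, were at 0 in both, which allows up to 0.126 and 0.145 CPM.

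**Figure D5:**
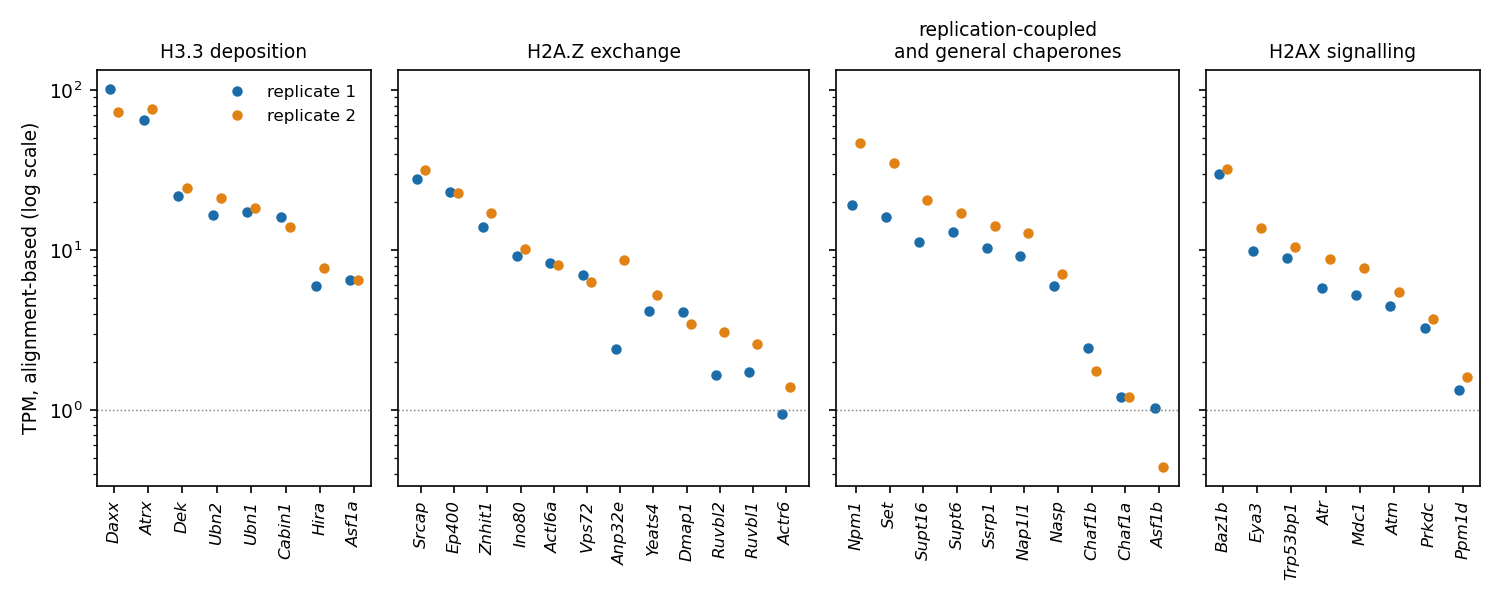
TPM (log axis) of genes for H3.3 deposition, H2A.Z exchange, replication-coupled and general histone chaperones and H2A.X signalling, in replicate 1 (blue, left) and replicate 2 (orange, right), ordered by mean within a list; the dotted line is 1 TPM. Daxx at 101 and 72.6 TPM and Atrx at 65.4 and 76.2 TPM stand highest.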

How the data were processed

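Ribosomal RNA was removed from nucleoplasmic RNA before sequencing, in 2 libraries of 1 group, per the labels. The deposited tables are on assembly mm10 with GENCODE M21, per the files deposited beside them. The alignment-based gene and transcript tables were derived from transcriptome alignments, and the read-based transcript table from the read files. For the aligner, quantification tools, trimming and strand setting the sources used here give no entry. The deposited expected counts are estimates in which a read that fits several genes is divided among them. The deposited TPM and FPKM values were normalised by the authors for effective length. The deposited percent of a gene's TPM per transcript was recomputed from TPM. The deposited TPM signal values were normalised by the authors for effective length and library total, so they are shares of a fixed total. The deposited bounds of TPM describe estimation error within a library. Read-based gene values are sums over transcripts.

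Levels are TPM as mean ± SD (n = 2). Counts were rounded and scaled with edgeR 4.0.16 by TMM (factors 0.997 and 1.003), and ratios used a prior count of 0.5. Intervals are exact Clopper-Pearson at 95% and cover counting error only. Shared sequence was counted as 31-base words. Named genes were the 9 members and, of each list, the 3 highest and the 1 lowest by mean TPM. No genes of like pattern were sought, since 1 group holds no pattern across conditions. Members and lists were chosen with earlier results of these data known. Alternatives were the read-based table, posterior mean TPM, FPKM, DESeq2 1.42.0 size factors, library size, other filters and pseudocounts, scaling without mitochondrial genes, and leaving out each library. Protein sequences were not used here, and 1 marker gene is not reported here. The software was R 4.3.3 and Python 3.11.15 with scipy 1.17.1, pandas 2.3.3, matplotlib 3.10.9 and numpy 2.4.6.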

Additional observations from a re-analysis of the deposited data

How the results depend on the processing

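The count of variant genes beyond 2-fold was 0 under every alternative run. Those at 1 TPM or more numbered 8 in both libraries together and 8 with either library left out, and 7 in the read-based table, with H2afx at 0.402 and 0.842 TPM. Of the 8 neighbouring pairs in the order of levels, 7 had values apart, 8 by FPKM and 5 in the read-based table. The log2 ratio of H2afj changed sign to -0.02 on TPM, with a pseudocount of 0.1 or of 1. Its effective length differed between the libraries. Ratios near 0 also changed sign. H3f3a went from -0.06 to 0.13 with read-based counts. H2afz went from 0.02 to -0.18 and -0.17 on TPM with pseudocounts of 0.1 and 1. The ratios of H3f3b, H2afy and H1f0 kept their direction.

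Shares moved by more than the SD between replicates in these cases. H3f3b held 78.6% of the H3.3 pair in the read-based table and 90.3% by expected counts per annotated length, against 89.6%. H2afz held 72.3% of the H2A.Z pair in the read-based table, against 78.7%. The variants held 97.7% of H3 in the read-based table, 98.8% by expected counts and 98.9% over genes at 1 TPM or more, against 97.2%. They held 66.8% of H2A by expected counts, and likewise 66.8% without Hist2h2aa2, against 59.2%. Of H1 they held 54.8% by expected counts and 57.3% over genes at 1 TPM or more, against 46.3%. At 10 TPM or more in both libraries were 15.6% of protein-coding genes. The lists kept 6 of 8 H3.3 deposition genes, 3 of 12 H2A.Z exchange genes and 5 of 10 chaperones at this threshold. They also kept 0 of 8 other variants and 1 of 8 genes of H2A.X signalling. The level of all 9 genes moved by more than the SD in the read-based table. The causes were not tested. No paired analysis was possible because both libraries belong to 1 group. With 2 libraries, depth limits H2afv, H2afx and H1fx most.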
